A study of Mus musculus with 2 samples.

Results

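Ptprc and Ptpn6 encode the protein tyrosine phosphatases CD45 and SHP-1. These 2 genes, of 55536 annotated genes measured, were described here with all of their 24 annotated transcripts, of 141862 in the annotation. Both were chosen by their measured TPM, counts and transcript shares in these same libraries, so every value of theirs is a description and carries no test. The samples were 2 total RNA libraries from neutrophils of the peripheral blood of adult C57BL/6J mice aged 5 to 6 weeks, a single group with no treatment or altered allele named. The ScriptSeq v2 kit was used on 100 ng of RNA per library, and the labelled size range is 200 to 1000. Both libraries bear the same donor identifier and the sex was not collected, so the spread between replicate 1 and replicate 2 may be technical.

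CD45 is a receptor-type phosphatase carried by nucleated blood cells, and it removes the inhibitory phosphate from the tail of Src-family kinases. The pre-mRNA of Ptprc is spliced so that exons 4, 5 and 6, which encode the extracellular segments A, B and C, are kept or left out by cell type. The form with all of these segments is known on B cells as B220, and the form with none of them is called CD45RO. SHP-1 is a cytosolic phosphatase whose pair of SH2 domains binds phosphorylated inhibitory motifs of receptors, and mice that lack it develop inflammation rich in neutrophils. Ptpn6 has an upstream promoter known from epithelial cells and a downstream promoter known from blood cells.

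Levels are given in TPM, the abundance of a gene's transcripts after division by length, scaled to a fixed sum in each library, and reads are given as the counts that the authors' quantification assigned to a gene. Replicate 1 held 22647028 such counts and replicate 2 held 21471719. With 3 counts taken as the floor, a gene with no count lay below 0.132 and 0.140 CPM (counts scaled to the library total). The 2 libraries were not copies of each other, since their counts differed by a chi-square of 24.2 per gene over 15059 genes. Of the 15 neutrophil markers all were detected, which here means a TPM of 1 or more in each library, with a median of 43.2 ± 1.12 (SD, n = 2) and a summed level of 3232 and 3176. All 12 B-cell markers were detected too, with a median of 45.9 ± 4.75, levels between 14.9 and 323 and a sum of 1072 and 975, and none was at 0. T-cell markers had a median of 2.70 ± 0.0283, with 11 of 12 detected, and monocyte markers one of 3.49 ± 0.368, with 8 of 12 detected. Red-cell markers, the globins among them, had a median of 104 ± 6.46 with 5 of 8 detected, and their sum of 4329 and 4264 TPM exceeded that of the neutrophil markers. Platelet markers had a median of 2.23 ± 0.0389, with 5 of 8 detected, and markers of natural killer cells one of 0.49 ± 0.170, with 2 of 8 detected. B cells also transcribe Ptprc and Ptpn6, and the part of B-cell RNA in the levels and transcript shares given here was not tested. In bulk RNA, fewer cells of a type and less RNA per cell cannot be told apart.

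Ptprc (ENSMUSG00000026395.16) lies on chromosome 1 from 138062861 to 138175708 on the minus strand (GRCm38), and GENCODE M21 lists 13 transcripts for it. Exon 4 (segment A, chr1:138122456-138122584) has 129 nt, exon 5 (segment B, chr1:138120020-138120166) has 147 nt and exon 6 (segment C, chr1:138117754-138117894) has 141 nt. Exon 7 (chr1:138116954-138117025), a further optional exon, has 72 nt. All 4 are coding exons of the extracellular part, and each has a length that keeps the reading frame. They are printed because the coding transcripts that span this region differ by which of them they hold. The strand of the mRNA is shown 5′ to 3′, as taken from the GENCODE M21 transcript Ptprc-207, with the whole codons of serine and threonine in capitals. Hydroxyl groups of these amino acids carry the O-linked sugars of the long forms.
Ptprc exon 4: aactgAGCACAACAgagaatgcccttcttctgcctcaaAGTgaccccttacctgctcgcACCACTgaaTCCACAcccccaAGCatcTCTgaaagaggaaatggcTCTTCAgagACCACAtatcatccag
Ptprc exon 5: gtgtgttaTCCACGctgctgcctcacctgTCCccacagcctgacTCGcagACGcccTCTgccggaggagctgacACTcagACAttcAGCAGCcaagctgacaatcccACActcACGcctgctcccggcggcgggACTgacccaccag
Ptprc exon 6: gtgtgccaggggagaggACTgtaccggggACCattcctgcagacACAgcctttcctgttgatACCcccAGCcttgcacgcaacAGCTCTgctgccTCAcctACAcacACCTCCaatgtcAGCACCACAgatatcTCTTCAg
Ptprc exon 7: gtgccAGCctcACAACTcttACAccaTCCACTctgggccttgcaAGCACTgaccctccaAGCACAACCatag

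Serine and threonine took 14 of 43 codons in exon 4 (32.6%), 13 of 49 in exon 5 (26.5%), 16 of 47 in exon 6 (34.0%) and 11 of 24 in exon 7 (45.8%). In the rest of the coding sequence of Ptprc-207 they took 145 of 1130 codons (12.8%). A transcript without exons 4 to 6 thus lacks 139 codons, of which 43 (30.9%) are for these amino acids.

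The coding transcripts differ in what follows exon 3. Ptprc-207 holds exons 4, 5, 6 and 7 and has 1293 codons. Ptprc-203 joins exon 3 to exon 7, has 1154 codons and is the CD45RO form. Ptprc-204 joins exon 3 to exon 8, so it lacks exon 7 as well, and has 1130 codons. Ptprc-213 joins exon 3 to exon 5 and exon 5 to exon 7, and its annotated 3′ end is incomplete. Ptprc-212 joins exon 4 to exon 6, without exon 5, and ends inside exon 6, so it does not span the variable region. The 4 junctions are shown 5′ to 3′ with the first bases of the downstream exon in capitals, because they are the bases by which a read tells these forms apart. The junction of Ptprc-207 is also in Ptprc-206 and Ptprc-212, and each of the others is in 1 transcript alone.
Ptprc-207, exon 3 to exon 4: ctacacccagtgatgAACTGAGCACAACAG
Ptprc-213, exon 3 to exon 5: ctacacccagtgatgGTGTGTTATCCACGC
Ptprc-203, exon 3 to exon 7: ctacacccagtgatgGTGCCAGCCTCACAA
Ptprc-204, exon 3 to exon 8: ctacacccagtgatgCTACCACAACGAAGC

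**Figure D1:**
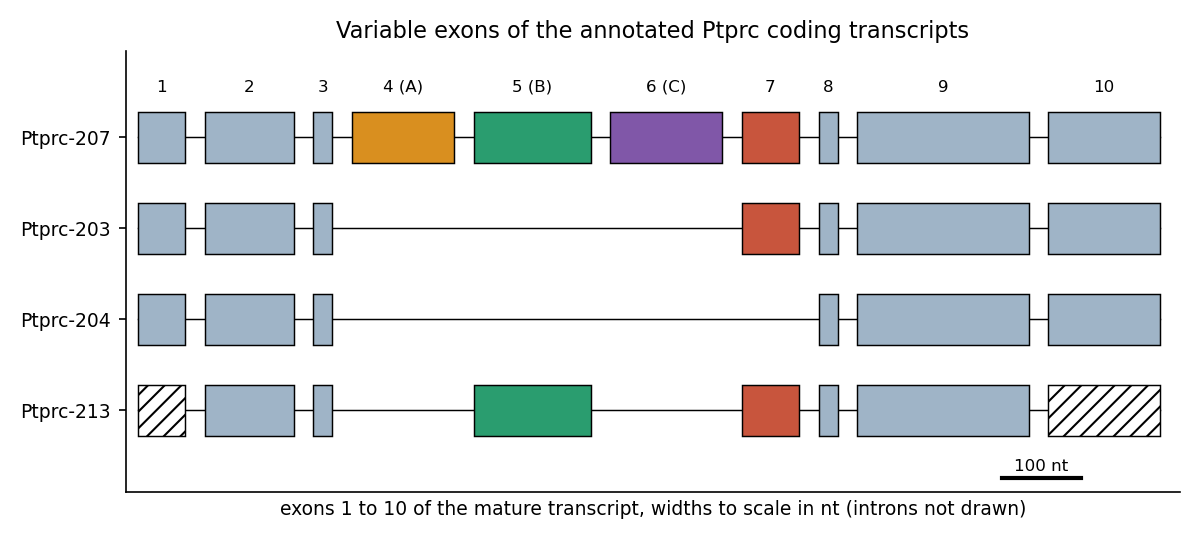
Exons 1 to 10 of the 4 Ptprc coding transcripts that span the variable region, with box widths to scale in nt and introns not drawn. Ptprc-207 holds exons 4, 5, 6 and 7, Ptprc-203 holds exon 7 alone of these, Ptprc-204 holds none, Ptprc-213 holds exons 5 and 7, and hatched boxes are exons that Ptprc-213 holds in part.

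Ptprc stood at 234.34 TPM in replicate 1 and 208.97 in replicate 2, a mean of 222 ± 17.9 (SD, n = 2). It ranked 22nd by mean TPM among 21938 nuclear protein-coding genes, with 99.7% of the 7671 detected ones below it. By count, which grows with transcript length, it ranked 3rd in each library, with 92595 and 83772 counts or 0.409% and 0.390% of all counts. The deposited interval of its TPM, whose level is not stated, ran from 228.89 to 232.791 in replicate 1 and from 204.423 to 207.895 in replicate 2, so these bounds did not overlap. Such bounds were made for each library alone and hold no term for variation between libraries. They lay below the TPM itself in each library, since they belong to a posterior estimate whose mean was 230.83 and 206.15.

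Ptpn6 (ENSMUSG00000004266.15, chromosome 6 from 124720707 to 124738714, minus strand, 11 transcripts) stood at 189.18 TPM in replicate 1 and 158.27 in replicate 2, a mean of 174 ± 21.9. It ranked 32nd by mean TPM, above 99.6% of detected protein-coding genes, and its TPM rank was 27 in replicate 1 and 40 in replicate 2. By count its rank was lower, 73 and 67. Its counts were 17433 and 16562, or 770 and 771 CPM, nearly equal in both libraries while its TPM was higher in replicate 1. The deposited bounds of its TPM, 182.701 to 197.663 and 152.848 to 166.163, did not overlap either, in spite of these counts. The mean length by which the deposited table divides the counts of Ptpn6, weighted by its transcripts, was 942.63 nt in replicate 1 and 1064.48 nt in replicate 2. The shift in TPM without a shift in counts came with a shift in the estimated transcript makeup, which is described further on. TPM also depends on the sum over all genes in each library, and the parts of makeup and of that sum were not tested. Scaled to the sum of nuclear protein-coding genes instead, Ptpn6 stood at 2147 TPM in replicate 1 and 1896 in replicate 2.

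Per length, Ptprc exceeded Ptpn6 by 1.24 times in replicate 1 and 1.32 times in replicate 2. Summed over the coding transcripts annotated from start to stop codon, the levels were further apart. The 3 such transcripts of Ptprc reached 154.56 and 138.85 TPM (147 ± 11.1), and the 4 of Ptpn6 reached 79.57 and 80.58 TPM (80.1 ± 0.714). The ratio of these sums was 1.94 and 1.72, and in the alignment-free table, a further quantification of the same libraries, 1.61 and 1.499. In each of these measures and in both libraries Ptprc stood above Ptpn6.

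Among 24 listed genes of protein tyrosine phosphatases, 14 were detected and the median was 1.85 ± 0.516 TPM. Over all genes, 8698 of 55536 (15.7%) were detected, and among protein-coding genes 7671 of 21938 (35.0%). The detected protein-coding genes had a median of 4.42 TPM in replicate 1 and 4.15 in replicate 2. Ptprc and Ptpn6 were the highest of the list in both libraries. The next below them was Ptpn18, a cytosolic phosphatase of the PEST family, at 22.48 and 25.36 TPM (23.9 ± 2.04). Ptpn1, the phosphatase PTP1B of the endoplasmic reticulum, followed at 18.73 and 12.92 (15.8 ± 4.11). By TPM the levels of Ptpn18 and Ptpn1 did not overlap between the genes, and their order was the same in both libraries. By expected counts their order was the opposite, with 957 and 1178 for Ptpn18 against 4058 and 4342 for Ptpn1. The place of Ptpn18 below Ptpn6 thus depended on the scale. Ptpn11, which encodes the SHP-1 relative SHP-2 and lies outside the naming rule, stood at 4.10 and 3.82 TPM. Ptprm, a receptor phosphatase of cell contacts, had 0 counts in both libraries.

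**Figure D2:**
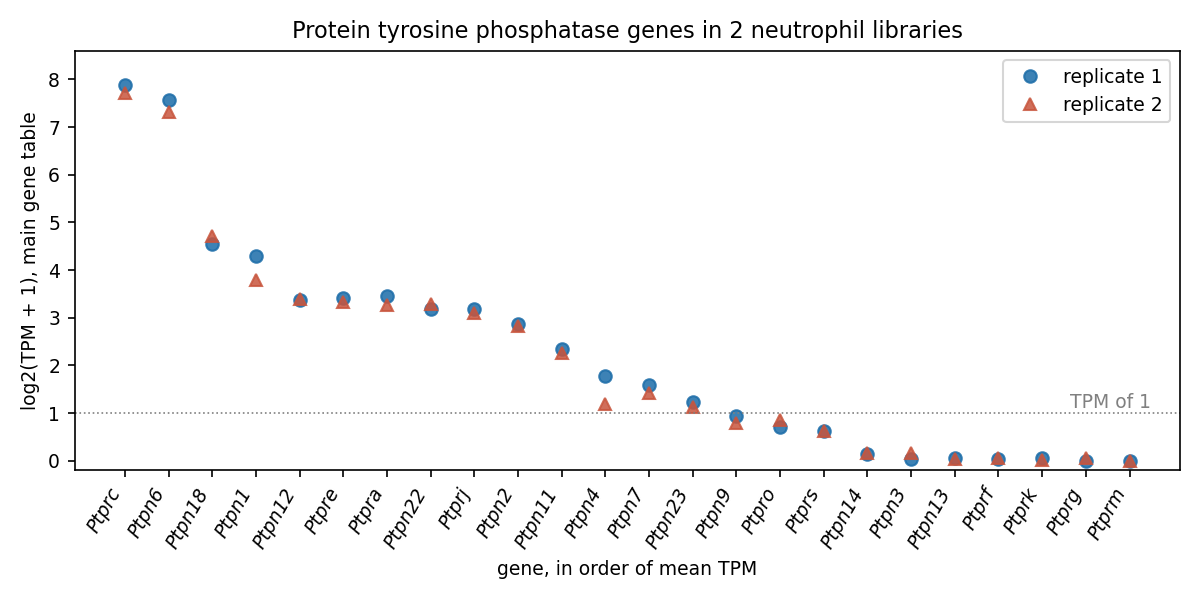
Levels of the 24 listed phosphatase genes as log2(TPM + 1) in replicate 1 (circles) and replicate 2 (triangles), in order of mean TPM, with a dotted line at a TPM of 1. Ptprc and Ptpn6 lie apart from the next gene, Ptpn18, in both libraries, and 14 of the genes lie above the line in both.

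The transcript table on GENCODE M21 gives each transcript as a percent of the TPM of its gene. In it Ptprc-203, the form without exons 4 to 6, took the largest share of Ptprc in both libraries, 33.83% in replicate 1 and 28.08% in replicate 2 (30.96 ± 4.07). Ptprc-207, the form with all of them, came next at 20.71% and 24.02% (22.4 ± 2.34). Ptprc-204 took 11.42% and 14.35% (12.9 ± 2.07). Ptprc-203 was higher than Ptprc-207 in both libraries, by 13.12 points in replicate 1 and by 4.06 points in replicate 2, so the size of the gap depended on the library.

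In the alignment-free table the order of these transcripts was the opposite. Ptprc-207 took 39.9% of the gene's TPM in replicate 1 and 41.0% in replicate 2 (40.5 ± 0.801). Ptprc-203 took 18.3% and 17.5% (17.9 ± 0.568), and Ptprc-204 took 5.03% and 5.29% (5.16 ± 0.184). The 2 libraries lay closer together in this table than in the M21 transcript table for each of the 3 forms. The gap between the tables exceeded the spread between libraries for each of them.

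The estimated counts of these forms differed between the tables in the same directions. The totals for Ptprc were unlike, with 92595 and 83772 counts on M21 and 110276 and 99390 in the alignment-free table. Ptprc-207 was given 23283 and 24251 counts in the M21 transcript table and 53580 and 49419 in the alignment-free one. For Ptprc-203 the counts were 35162 and 26203 against 22656 and 19428. For Ptprc-204 they were 11626 and 13124 against 6119 and 5772. The deposited standard deviation of the estimate was 906 and 777 counts for Ptprc-203 and 370 and 348 for Ptprc-207, far below the gap between the tables.

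Few bases set these forms apart. Of the 5044 windows of 31 bases in Ptprc-207, 446 occur in neither Ptprc-203 nor Ptprc-204. Of the 4672 windows of Ptprc-203, 74 are absent from Ptprc-207. Counted against all annotated transcripts of the gene, 47 windows belong to Ptprc-207 alone, 32 to Ptprc-203 and 29 to Ptprc-204. No window belongs to Ptprc-206 or Ptprc-209 alone. These window counts were made after the shares had been seen, and their part in the gap between the tables was not tested. GENCODE gives Ptprc-203 and Ptprc-204 its support level 1, the best, and Ptprc-207 level 5, the lowest.

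**Figure D3:**
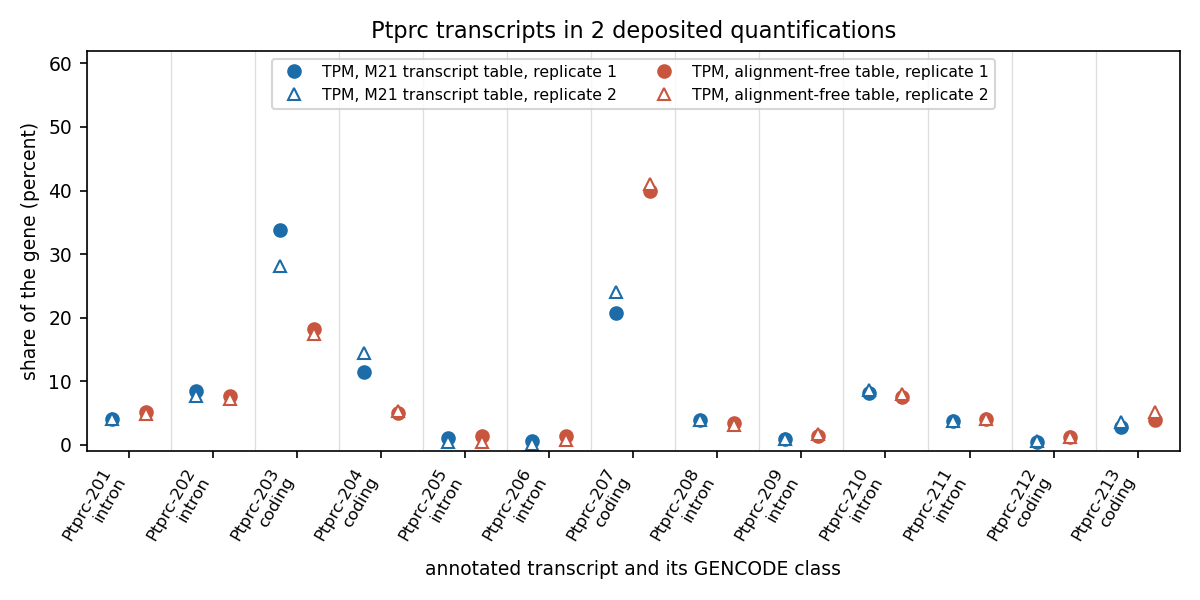
Share of each of the 13 annotated Ptprc transcripts in the TPM of the gene (percent), from the M21 transcript table (blue) and the alignment-free table (red), with replicate 1 as circles and replicate 2 as triangles; each transcript name carries its GENCODE class, coding or retained intron. Ptprc-203 leads in blue at 33.83% and 28.08%, and Ptprc-207 leads in red at 39.9% and 41.0%.

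A change of leading transcript between the tables was common. Among 3288 genes with a mean TPM of at least 5 and several transcripts, the leading transcript differed between the tables in both libraries for 646 (19.6%), Ptprc among them and Ptpn6 not. A share that differed by at least 20 points in the same direction in both libraries was found for 1115 of 25269 transcripts (4.41%) and for 0 of the 24 transcripts of Ptprc and Ptpn6. At 10 points, a lower bar, the count was 3465 transcripts (13.7%) and 3 of the 24, namely Ptprc-203, Ptprc-207 and Ptpn6-208. A share of 3 in 24 is close to that background.

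Summed by exon over the 4 coding transcripts that span the variable region, segment A was held by 30.1% of TPM in replicate 1 and 34.3% in replicate 2 of the M21 transcript table (32.2 ± 2.99). Segment C had the same values, since Ptprc-207 is the only spanning transcript with either. Segment B, which Ptprc-213 holds too, reached 34.2% and 39.4% (36.8 ± 3.63). Exon 7 was held by 83.4% and 79.5% (81.4 ± 2.77). Transcripts with none of segments A, B and C made up 65.8% and 60.6% (63.2 ± 3.63).

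In the alignment-free table segments A and C stood at 59.4% and 59.6% (59.5 ± 0.0809), segment B at 65.3% and 67.0% (66.1 ± 1.19) and exon 7 at 92.5% and 92.3% (92.4 ± 0.130). Transcripts with none of the segments made up 34.7% and 33.01% (33.9 ± 1.19). Forms with segments A to C were thus the minority in one table and the majority in the other, in both libraries. The annotated transcripts are nested, so that exon 7 cannot be held less often than segment B, nor B less often than A and C, in any data. No annotated spanning transcript holds A without C, so the tables cannot show such a form.

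**Figure D4:**
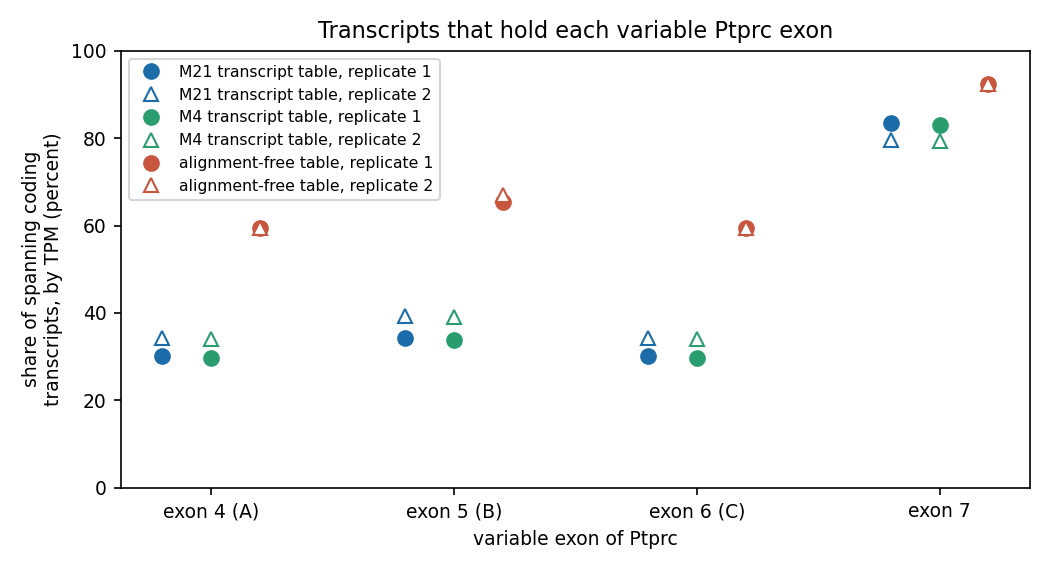
Share of TPM (percent) in spanning Ptprc coding transcripts that hold exon 4 (segment A), exon 5 (B), exon 6 (C) or exon 7, for 3 deposited transcript tables, with replicate 1 as filled circles and replicate 2 as open triangles. The M21 and M4 points lie together for segments A to C, between 29.7% and 39.4%, and the alignment-free points lie between 59.4% and 67.0%.

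Transcripts that GENCODE classes as retained intron took 30.8% of Ptprc TPM in replicate 1 and 29.5% in replicate 2 (30.1 ± 0.890). The alignment-free table gave 31.6% and 29.9%, so here the tables lay within about the spread between libraries. Among 2274 protein-coding genes with such transcripts and a TPM of at least 5 in each library, the median share was 25.2% (quartiles 12.0% and 41.2%). Of these genes, 58.4% lay below Ptprc. The share of Ptprc was thus near the middle of the other genes.

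The models with the highest levels among these hold introns that border the variable exons. Ptprc-202 holds exons 1 to 3 and 2430 of the 3718 nt of intron 3, just before the variable exons, and stood at 19.60 and 16.16 TPM. Ptprc-210 runs unspliced through exons 5 and 6 with parts or all of introns 4, 5 and 6, and stood at 18.99 and 18.02 TPM. Ptprc-201 holds 799 nt of intron 7 and the exons after it, at 9.61 and 8.48 TPM. Ptprc-208, which runs unspliced through exon 2 into intron 2, stood at 9.09 and 8.08 TPM, and Ptprc-211 in introns 8 to 10 at 8.78 and 7.83. By TPM each of these 5 was lower in replicate 2, as was the gene as a whole. By counts scaled to library totals, Ptprc-210 in replicate 2 was 1.01 times its value in replicate 1. For the rest of the 5 that ratio lay between 0.876 and 0.948. The other members, Ptprc-205, Ptprc-206, Ptprc-209, Ptprc-212 and Ptprc-213, each took under 4% of the gene in the M21 transcript table. Ptprc-213, the form with segment B alone, was the highest of them at 6.66 and 7.37 TPM, or 2.84% and 3.53%.

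Total RNA holds unspliced precursor as well as mature RNA, and these libraries cannot separate unspliced precursor from a retained intron. A130071D04Rik, an unspliced gene model of the same strand inside intron 2 of Ptprc, stood at 7.67 and 6.68 TPM with 4274 and 3749 counts. Its level lay near those of Ptprc-208 and Ptprc-211. On the other strand of Ptpn6 lies Gm20531, an antisense gene at chr6:124732168-124738040, with 13 and 25 counts. Strand handling in the tables is not given in the sources used here, so it is not known whether they told reads of this pair apart by strand.

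For Ptpn6 the results turn on the first exon and on exon 2. Ptpn6-201, Ptpn6-203 and Ptpn6-210 begin coding in the upstream first exon, and Ptpn6-202 begins coding in the downstream one. Ptpn6-210 also lacks exon 2 (chr6:124732738-124732860), whose 123 nt are 41 codons in frame and encode a stretch of the N-terminal SH2 domain, the one that binds the catalytic site at rest. Coding sequences have 595 codons in Ptpn6-202, 597 in Ptpn6-201 and Ptpn6-203 and 556 in Ptpn6-210. The coding starts are shown 5′ to 3′ from the ATG, as read from GENCODE M21 (GRCm38, minus strand). In Ptpn6-202 and Ptpn6-210 the capitals mark the first coding exon. In Ptpn6-201 they mark exon 2, which Ptpn6-210 lacks.
Ptpn6-202: ATGGTGAGgtggtttcaccgggacctcagc
Ptpn6-201: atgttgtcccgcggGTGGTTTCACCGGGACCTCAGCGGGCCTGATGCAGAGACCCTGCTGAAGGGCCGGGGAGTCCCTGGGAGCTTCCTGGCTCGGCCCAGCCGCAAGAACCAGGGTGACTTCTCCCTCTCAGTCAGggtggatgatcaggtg
Ptpn6-210: ATGTTGTCCCGCGGggtggatgatcaggtg

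Ptpn6-204, a non-coding model of 421 nt with exons 5 to 7 and 44 of the 116 nt of intron 4, had the largest share of Ptpn6 TPM in both libraries and both tables. It took 40.61% in replicate 1 and 29.92% in replicate 2 of the M21 transcript table, and 42.2% and 36.8% of the alignment-free one. By expected counts it was a minor form, with 1922 and 1221 counts or 11.0% and 7.37% of the gene. The model is short, so few reads give a high TPM, and 42 of its 391 windows of 31 bases occur in no other Ptpn6 transcript. Its level of 76.83 TPM in replicate 1 and 47.35 in replicate 2 differed by 29.48 TPM, close to the difference of the whole gene, 30.91 TPM. The other transcripts moved in both directions, and their changes nearly cancelled. From replicate 1 to replicate 2, Ptpn6-202 fell from 42.59 to 31.55 TPM and Ptpn6-208 from 32.78 to 30.04. Ptpn6-210 rose from 31.09 to 41.23, Ptpn6-201 from 5.89 to 7.8 and Ptpn6-206 from 0 to 0.3.

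Ptpn6-202, from the downstream start, took 22.51% and 19.94% of TPM (21.2 ± 1.82) and the largest share of counts in replicate 1, 49.0% against 27.5% for Ptpn6-210. In replicate 2 its share of counts was 38.6%, against 38.8% for Ptpn6-210, so the pair was level there. Ptpn6-210 took 16.44% and 26.05% of TPM (21.2 ± 6.80). The means of Ptpn6-202 and Ptpn6-210 were equal to within their spread, and their order differed between the libraries. In the alignment-free table Ptpn6-202 took 22.5% and 19.9%, as in the M21 transcript table, and Ptpn6-210 took 27.1% and 33.2% and was the higher in both libraries. Ptpn6-201, with both the upstream start and exon 2, took 3.11% and 4.93%, and Ptpn6-203 was listed at 0 in the M21 transcript table.

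Ptpn6-208, a 3′ fragment of 456 nt, took 17.32% and 18.98% of TPM in the M21 transcript table, with 932 and 878 counts, and was listed at 0 in the alignment-free table in both libraries. It shares all but 28 of its 426 windows with other Ptpn6 transcripts. Ptpn6-206 reached at most 0.19% and 2.15% in these tables. Ptpn6-211, a model of 120 nt, was listed at 0 in the first and took 3.68% and 4.56% in the second. Ptpn6-205, Ptpn6-207 and Ptpn6-209 were listed at 0 in the M21 transcript table, and of these Ptpn6-205 alone was above 0 in the alignment-free one.

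Among the 4 coding transcripts annotated from start to stop, those with the upstream first exon held 46.5% of TPM in replicate 1 and 60.8% in replicate 2 (53.7 ± 10.2), and 56.5% and 64.8% in the alignment-free table. Ptpn6-210, the form without exon 2, held 39.1% and 51.2% (45.1 ± 8.55), and 52.2% and 58.7% in the alignment-free table. The upstream start thus had less of the M21 total than the downstream one in replicate 1 and more in replicate 2. These groupings were chosen after the shares had been seen. Ptpn6-210 has 28 windows of 1713 that are its own, and its GENCODE support level is 5.

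**Figure D5:**
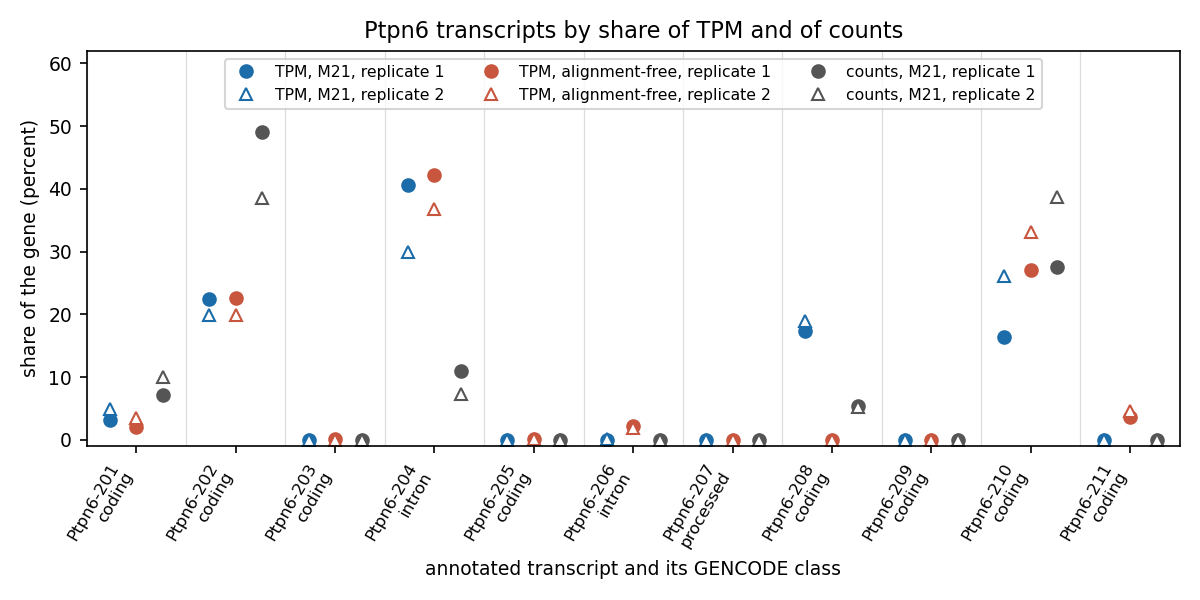
Share of each of the 11 annotated Ptpn6 transcripts in the TPM of the gene in the M21 transcript table (blue) and the alignment-free table (red) and in the expected counts of the M21 transcript table (grey), in percent, with replicate 1 as circles and replicate 2 as triangles. Ptpn6-204 leads by TPM in both tables and stands at 11.0% and 7.37% by counts, where Ptpn6-202 stands at 49.0% and 38.6%.

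By class, coding transcripts held 69.9 ± 0.890% of Ptprc TPM and 64.6 ± 7.43% of Ptpn6 TPM. Of the counts they held 76.2 ± 0.224% and 90.8 ± 2.56%. The retained-intron class held 40.6% and 30.1% of Ptpn6 TPM (35.4 ± 7.43), and 67.2% of the 2274 background genes lay below that mean. In Ptpn6 the split between classes therefore depended far more on the scale than in Ptprc.

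Between the libraries, the count of Ptprc scaled by library totals was 0.954 times as high in replicate 2 as in replicate 1 (exact 95% interval 0.945 to 0.963), and that of Ptpn6 was 1.00 times as high (0.981 to 1.02). Such intervals cover counting error only and hold no term for other variation between libraries. They treat reads as independent, while PCR copies of a molecule are read more than once, so they may be too narrow. Neither gene met the rule for a difference, a fold of at least 2 on the scale of TPM + 1, which 84 of 9097 genes (0.923%) met. Their folds on that scale were 1.12 for Ptprc and 1.19 for Ptpn6, both higher in replicate 1.

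Several transcripts differed more between the libraries than their genes. The scaled count of Ptprc-203 in replicate 2 was 0.786 times that in replicate 1 (0.773 to 0.799), while the ratio was 1.099 (1.08 to 1.12) for Ptprc-207 and 1.19 (1.16 to 1.22) for Ptprc-204. In the alignment-free table the same ratios were 0.917, 0.986 and 1.01, all nearer to that of the gene. For Ptpn6 the ratio was 0.788 (0.763 to 0.814) for Ptpn6-202, 0.670 (0.623 to 0.720) for Ptpn6-204 and 1.41 (1.36 to 1.47) for Ptpn6-210. The alignment-free ratios were 0.843, 0.851 and 1.17, in the same directions. These intervals leave out the error of dividing reads among transcripts.

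Src-family kinases and the kinases and adaptors that work beside them form the next list. Among its 13 genes, 11 passed the detection level, and the median was 20.05 ± 0.629 TPM. Syk, a kinase downstream of immune receptors, stood at 67.61 and 63.39 TPM, and Lyn, a Src-family kinase of myeloid and B cells, at 49.25 and 43.19. Csk, which places the inhibitory phosphate that CD45 removes, stood at 42.85 and 45.27. Skap2, an adaptor of integrin signalling, stood at 34.73 and 28.35. Src was the lowest at 0.04 and 0.03 TPM. Each of the first 4 stood below Ptprc and Ptpn6 in both libraries.

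Of 22 matched genes for receptors with inhibitory tyrosine motifs and the phosphatases they recruit, 21 passed it, and the median was 11.9 ± 0.700 TPM. Lilrb4a, an inhibitory receptor of the leukocyte immunoglobulin-like family, led at 167.32 and 151.67 TPM, a range that overlapped that of Ptpn6. Cd22, an inhibitory receptor of B cells that is also among the B-cell markers, stood at 56.38 and 40.14. Pirb, an inhibitory receptor for major histocompatibility class I, stood at 35.90 and 33.10, and Cd300lf, a receptor for membrane lipids, at 33.76 and 30.06. Klrb1b was the lowest at 0.13 and 0.03.

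All 20 listed splicing factors passed it, and their median was 25.9 ± 1.01 TPM. The highest were Srsf5 at 132.09 and 125.30 TPM, Sfpq at 74.53 and 66.61, Srsf3 at 53.58 and 46.93 and Mbnl1 at 50.36 and 50.09. Srsf3 and Srsf5 are SR proteins, which bind exons, Sfpq is known to act on Ptprc exon 4 in T cells, and Mbnl1 binds exons and introns in many tissues. Gsk3b, the kinase known to hold back Sfpq in resting T cells, was the lowest of the list at a mean of 4.81 TPM. Hnrnpll, known as a factor for skipping of the variable exons, lies outside the naming rule and stood at 6.28 and 5.23 TPM. Hnrnpl, its relative, stood at 28.03 and 24.45.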

How the data were processed

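Total RNA of mouse blood neutrophils was measured in 2 libraries. The authors deposited gene and transcript tables on GENCODE M21 and M4 (mm10) with expected counts, TPM and the percent of a gene's TPM per transcript, per the file headers. They were made from reads aligned to the transcriptome, per the deposited file lists. A further deposited M21 transcript table holds estimated counts and TPM and lists no alignment among its parents, so it is called alignment-free here. The bounds and posterior values are the authors' own. Which programs made the tables is not given in the sources used here.

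Levels, transcript shares and their means ± SD (n = 2) came from Python 3.11.15 (numpy 2.4.6; pandas 2.3.3; scipy 1.17.1), and plots from matplotlib 3.10.9. Exons, codons and windows of 31 bases were read from GENCODE M21. Detection meant a TPM of 1 or more in each library. A difference between libraries needed a TPM of at least 1, at least 50 expected counts and a fold of at least 2 with a pseudocount of 1. Expected counts were rounded for binomial intervals, for TMM (edgeR 4.0.16) and for size factors (DESeq2 1.42.0, R 4.3.3). The call rule was tested on simulated data with counting error alone and with folds above the cutoff in well-covered genes. That test does not cover the wider variation between these libraries or genes near the thresholds. The 26345 rows that name no gene, spike-ins included, held 0.000163% and 0.000216% of the counts and were not counted as genes.

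The members and lists were chosen with earlier results of these data known. Named beyond them were, in each list, the 4 highest genes, the lowest and any with 0 counts. Alternatives covered the table, the annotation, the scale of shares, thresholds and each library left out.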

Additional observations from a re-analysis of the deposited data

How the results depend on the processing

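The lead of Ptprc-203 over Ptprc-207 reversed with the quantification: Ptprc-207 minus Ptprc-203 was -8.59 points in the M21 transcript table and 22.6 in the alignment-free one. The alignment-free table also moved Ptprc-203 to 17.9%, Ptprc-207 to 40.5%, segments A and C to 59.5%, segment B to 66.1% and exon 7 to 92.4%, and the levels of Ptprc and Ptpn6 to 332 and 251 TPM. The cause was not tested. Scaled to nuclear protein-coding genes, the levels were 2582 and 2022 TPM, because the denominator is smaller. By expected counts, Ptpn6-202 took 43.8%, Ptpn6-204 9.20%, Ptprc-207 27.0%, segments A and C 35.5%, and coding transcripts 76.2% of Ptprc and 90.8% of Ptpn6. The log2 ratio of Ptprc, -0.068 by library totals, was -0.047 with TMM, -0.054 with DESeq2 size factors and -0.0537 in the alignment-free table. Genes differing between libraries numbered 145 with a minimum of 10 counts and 294 with none. Transcripts whose share differed between the tables numbered 2740 at a gene TPM of at least 1, 203 at 20, 3465 at 10 points and 369 at 30 points. With M4 models the levels and transcript shares of Ptprc and Ptpn6 moved by less than 1 SD or 1.5 times. Some values of other genes moved more, and the red-cell median was 187 TPM. Lilrb4a was not matched in M4, where the highest mean level of its list was 48.5 TPM and 19 genes of that list were detected. With either library left out each value is that of the other library, as the report gives it. No paired analysis was possible because there is a single group. The 2 libraries of the same donor identifier limit every error given.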
